A study of Mus musculus with 2 samples.

Results

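The 53 genes described here encode translation initiation factors, the kinases that phosphorylate eIF2, and the proteins that bind the cap-binding factor eIF4E. They are all genes with at least 1 transcript of type protein_coding whose symbol starts with Eif and a digit, apart from Eif2s3x and Eif2s3y, and they make up 53 of 21901 genes with such a transcript and of 55536 annotated genes. The rule rests on names and annotated transcript types and uses no measured value, though it was set with earlier results of these data known. The prefix also takes in Eif5a and Eif6, which act beyond initiation, and Eif1ad, a protein with a domain like that of eIF1A. A further 11 entries with the prefix have no coding transcript and were left out.

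RNA came from the left cerebral cortex of 2 male mice of 8 to 10 months, labelled 5xFAD crossed with CAST and given as biological replicates 1 and 2 of 1 group. The 5xFAD line carries human amyloid precursor protein and presenilin transgenes with mutations of familial Alzheimer disease, which the neuronal Thy1 promoter drives, and CAST mice descend from wild Mus musculus castaneus. Both animals carry the same label, no mice without the transgenes were analysed here, and the generation of the cross is not given in the sources used here. Each library was made from 300 ng of RNA reduced in ribosomal RNA, with spike-in RNA of the ERCC set, and with 2 samples in 1 group no p-value was computed.

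The library of replicate 1 held 34101499 reads and that of replicate 2 held 32543032, of which 143766 and 137580 fell on the 53 genes, or 0.424% and 0.425% of the counts on genes. Markers of cortical neurons were present in both, among them Camk2a at 945.6 and 967.9 TPM, Slc17a7 at 423 and 476 TPM and Tbr1 at 42.6 and 47.5 TPM. TPM is a level per length, as a share of all RNA in the table. The libraries differed in other respects: all 10 choroid plexus markers had more reads in replicate 1, with a summed level of 562 against 109.8 TPM, and all 10 immediate early genes had more reads in replicate 2, with 119 against 246 TPM. Scaled counts of all 15 astrocyte, oligodendrocyte and microglia markers were higher in replicate 1, by 0.09 to 0.25 on the log2 scale. Those of all 5 inhibitory neuron markers were higher there too, with log2 ratios of replicate 2 over replicate 1 of -0.13 to -0.01.

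Initiation begins when eIF2 brings the initiator methionyl-tRNA to the small ribosomal subunit, together with eIF1, eIF1A, eIF3 and eIF5. The cap-binding complex eIF4F, made of eIF4E, the scaffold eIF4G and the helicase eIF4A, recruits that subunit to the messenger RNA. Stress kinases phosphorylate the alpha subunit of eIF2, which then inhibits its exchange factor eIF2B, and the 4E-BPs bind eIF4E when the kinase mTOR is inactive. In neurons, both controls are known for their part in synaptic plasticity, and partial loss of eIF2B causes a disease of white matter.

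Of the 53 genes, 52 were detected at 1 TPM or more in both animals, or 98.1%, against 59.6% of the 21901 coding genes. Their median level was 30.6 TPM, with 28.9 in replicate 1 and 32.3 in replicate 2. The median of the detected coding genes was 15.1 TPM, and 50 of the 53 lay above the median of all coding genes, 4.00 TPM. The levels spread widely: 8 genes stood at 100 TPM or more and held 52.9% of the summed TPM, 37 stood between 10 and 100 TPM, and 8 stood below 10 TPM. By role, the median was highest for the eIF4A helicases and their cofactors at 124.4 TPM and the eIF4G scaffolds at 107.0 TPM. It was lowest for the eIF2 kinases at 10.1 TPM and the eIF4E-binding proteins at 11.1 TPM.

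**Figure D1:**
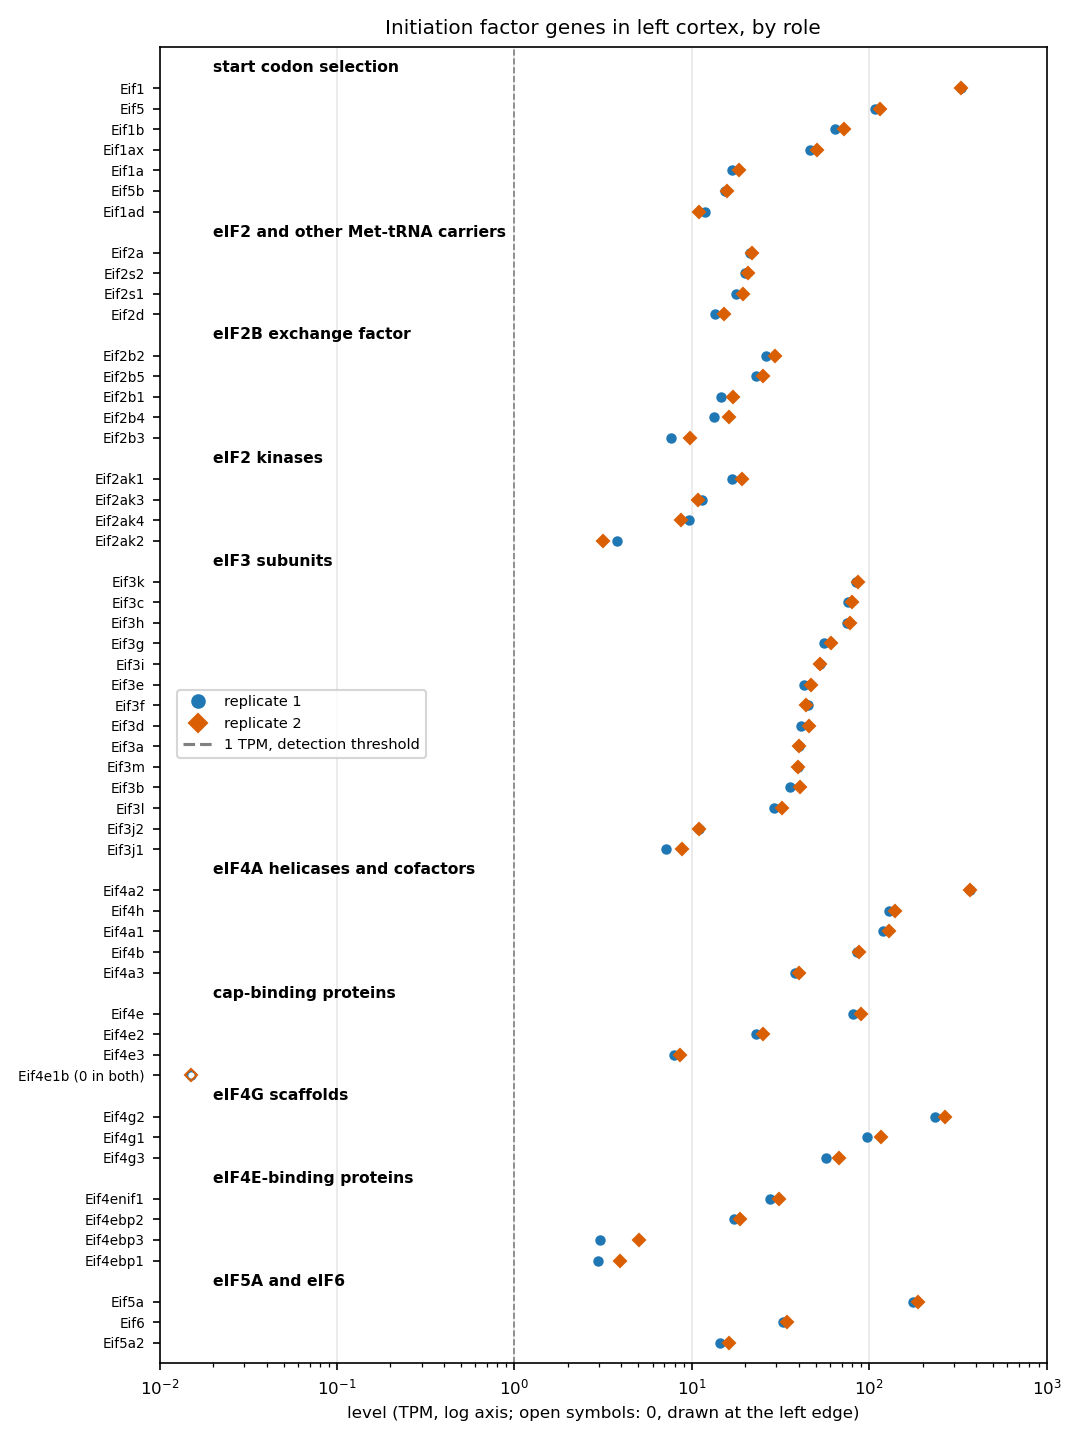
Levels of the 53 genes in TPM on a log axis, grouped by role, with 1 symbol for each animal. The points of both animals nearly coincide for most genes, Eif4a2 and Eif1 lie highest, and Eif4e1b is listed at 0 in both.

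Among the factors that select the start codon, Eif1, which keeps scanning ribosomes from starting at the wrong codon, was the most abundant, at 327 TPM in replicate 1 and 330.2 in replicate 2. Its close relative Eif1b stood at 64.1 and 71.9 TPM. On the log2 scale of TPM, Eif1b lay below Eif1 by 2.27 ± 0.11 (SD, n = 2), a gap far beyond that spread. The coding sequences of the pair are 81.1% identical in 339 bases. Much of the level of Eif1 stems from a short RNA with no reading frame annotated: Eif1-202, a processed transcript of 383 bases. It took 20.9% and 19.9% of the reads of the gene, but 51.75% and 50.72% of its TPM. The coding transcript Eif1-201 stood at 142.7 and 151.1 TPM, below Eif1-202 at 169.2 and 167.5 TPM. When TPM of coding transcripts alone were compared, the gap was 1.16.

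Eif5, which makes eIF2 hydrolyse its GTP at the start codon, stood at 107.4 and 114 TPM. Eif1ax, the X-linked gene of eIF1A, stood at 46.4 and 50.6 TPM, above its autosomal counterpart Eif1a at 16.8 and 18.3 TPM. Both encode the factor that works beside eIF1 in scanning. Eif5b, the GTPase that joins the ribosomal subunits, stood at 15.4 and 15.8 TPM, and Eif1ad at 11.9 and 11.03 TPM. The ranges of Eif5b and Eif1a did not overlap between genes, but their gap is near the spread of Eif1a between animals. In the kallisto-format table, a second estimate from the same reads, the order was opposite, with means of 17.98 TPM for Eif5b and 17.45 for Eif1a. The coding transcript Eif5b-201 alone stood at 7.66 and 8.07 TPM in the first estimate. Eif1ad had 492 and 486 reads, and Banf1, which overlaps it on the other strand, had 539 and 564.

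Over all transcripts, the eIF2 subunits encoded by Eif2s1 and Eif2s2, alpha and beta, stood at similar levels. Eif2s1 was at 17.8 and 19.3 TPM and Eif2s2 at 19.96 and 20.6 TPM. Of the Eif2s1 level, 8.29 and 7.88 TPM lay on Eif2s1-203, a processed transcript of 433 bases. The leading coding transcripts differed, with Eif2s1-201 at 9.22 and 10.82 TPM and Eif2s2-201 at 18.84 and 19.17 TPM. The alpha subunit carries the serine that the kinases phosphorylate. It is shown in its coding sequence, read from the leading coding transcript of Eif2s1 (mm10, chromosome 12, plus strand), with its codon at 78866680 to 78866682, coding bases 154 to 156, in capitals.
Eif2s1: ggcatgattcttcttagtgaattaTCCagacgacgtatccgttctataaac
The gamma subunit is encoded on the sex chromosomes in mice, by Eif2s3x at 49.7 and 51.2 TPM and Eif2s3y at 20.3 and 24.5 TPM. Both gamma genes stood above the alpha gene in each animal. The other carriers of initiator tRNA, which do not need the eIF2 complex, were at comparable levels: Eif2a stood at 21.2 and 21.9 TPM and Eif2d at 13.5 and 15.1 TPM.

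The subunits of eIF2B, which reloads eIF2 with GTP, differed by 3.21-fold between the highest and the lowest. Eif2b2 stood at 26.3 and 29.5 TPM and Eif2b5, the catalytic subunit, at 23.1 and 25.3 TPM. Eif2b1 stood at 14.5 and 17.0 TPM, Eif2b4 at 13.3 and 16.2 TPM and Eif2b3, which pairs with Eif2b5 in the catalytic core, at 7.59 and 9.76 TPM. Eif2b3 was the lowest in both animals, with 286 and 328 reads. Eif2b1 and Eif2b4 did not differ from each other by more than the spread between the animals. In the kallisto-format table the span was 2.46-fold, and Eif2b2 stood at 18.8 TPM, below Eif2b5 at 21.7 TPM. Transcripts with a retained intron took 16.0% and 23.2% of the Eif2b2 reads in the RSEM-format table, from which all levels come unless stated. The leading coding transcript Eif2b2-201 stood at 13.3 and 13.2 TPM, below Eif2b5-201 at 19.7 and 20.3 TPM.

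All 4 eIF2 kinases were detected, with Eif2ak1 first and Eif2ak2 last in both animals. Eif2ak1, or HRI, which responds to heme shortage and mitochondrial stress, stood at 16.8 and 19.1 TPM. Eif2ak3, or PERK, the sensor of unfolded proteins in the endoplasmic reticulum, stood at 11.4 and 10.9 TPM, and Eif2ak4, or GCN2, the sensor of uncharged tRNA, at 9.58 and 8.63 TPM. Eif2ak2, or PKR, which binds double-stranded RNA, stood at 3.77 and 3.15 TPM, on 243 and 247 reads. Relative to Eif2ak4 on the log2 scale of TPM, Eif2ak1 lay higher by 0.97 ± 0.24, Eif2ak3 higher by 0.29 ± 0.05 and Eif2ak2 lower by 1.37 ± 0.07 (SD, n = 2). Each gap exceeded its SD, but the sizes depended on the transcripts counted and on the table. The log2 ratio of Eif2ak2 over Eif2ak4 was -0.89 in the kallisto-format table and -1.85 on coding transcripts alone. That of Eif2ak3 was 0.42 and 0.13, and that of Eif2ak1 was 1.00 and 0.92. The summed kinase level was 41.6 and 41.8 TPM, and that of Eif2s1 over all its transcripts was 0.429 and 0.463 times this sum.

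eIF3, the largest factor, holds the small subunit and links it to eIF4G. Its 14 genes had a median of 44.2 TPM and spanned 10.7-fold, from Eif3k at 84.8 and 86.2 TPM to Eif3j1 at 7.19 and 8.77 TPM. Most of that span came from the Eif3j pair: over the other 12 genes, a set chosen after the values were seen, it was 2.79-fold, down to Eif3l at 28.9 and 32.3 TPM. In order of mean level after Eif3k came Eif3c at 76.2 and 79.7 TPM, Eif3h at 75.3 and 77.8 TPM, Eif3g at 55.5 and 60.9 TPM and Eif3i at 52.96 and 52.7 TPM. Eif3g binds RNA, Eif3i is a propeller protein that sits with Eif3b, and Eif3c and Eif3h belong to the core. Eif3e at 42.7 and 47.01 TPM, Eif3f at 45.3 and 44.1 TPM and Eif3d, which can itself bind a cap, at 41.4 and 46.01 TPM overlapped in range. Eif3a, the large scaffold, stood at 40.37 and 40.35 TPM, Eif3m at 39.4 and 39.6 TPM and Eif3b at 35.9 and 40.8 TPM, a range that holds both of the others.

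Eif3j1 and Eif3j2 encode the loosely attached j subunit and cannot be separated well in these data. The aligned coding sequences of their leading transcripts, 783 bases, are 100% identical. Of the sampled stretches of 50 bases, 91.4% of Eif3j2 and 39.9% of the leading Eif3j1 transcript occur in a transcript of another gene, mainly of the other copy. Eif3j2 was listed at 10.98 and 10.94 TPM. The sum of both genes was 18.2 and 19.7 TPM, still below each of the other 12 subunits.

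The helicase gene Eif4a2 (ENSMUSG00000022884.15, mm10 chromosome 16, 23107444 to 23114136, plus strand) had the highest level of all 53 in the RSEM-format table, at 368.3 and 367.7 TPM, on 13006 and 11815 reads. In the kallisto-format table Eif1, at a mean of 493.6 TPM, stood above Eif4a2 at 486.6 TPM. Eif4a1, its ubiquitous paralog, stood at 119.6 and 129.2 TPM. Eif4a2 lay above Eif4a1 by 1.57 ± 0.08 on the log2 scale of TPM (SD, n = 2), or 2.96-fold, and by 1.47 in the kallisto-format table. Their coding sequences are 77.8% identical. Eif4a3, which marks exon junctions rather than unwinding leaders, stood at 37.9 and 40.3 TPM, below Eif4a1 by 1.67 ± 0.02 (SD, n = 2). In the kallisto-format table the log2 ratio of Eif4a3 over Eif4a1 was -2.44. The cofactors that stimulate the helicase were abundant too, with Eif4h at 129.5 and 139.5 TPM and Eif4b at 84.8 and 87.8 TPM. Eif4h lay above Eif4b by 0.64 ± 0.04.

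The split of the Eif4a1 level is uncertain, because 65.3% of the stretches of its leading coding transcript recur in other genes, mostly in the processed pseudogene Eif4a-ps4, which was listed at 14.2 and 17.6 TPM. The same share was 26.3% for Eif4a2 and 24.7% for Eif4a3. Of all 53 genes, 12 shared 10% or more of the stretches of the leading coding transcript and 21 shared no stretch of any transcript.

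**Figure D2:**
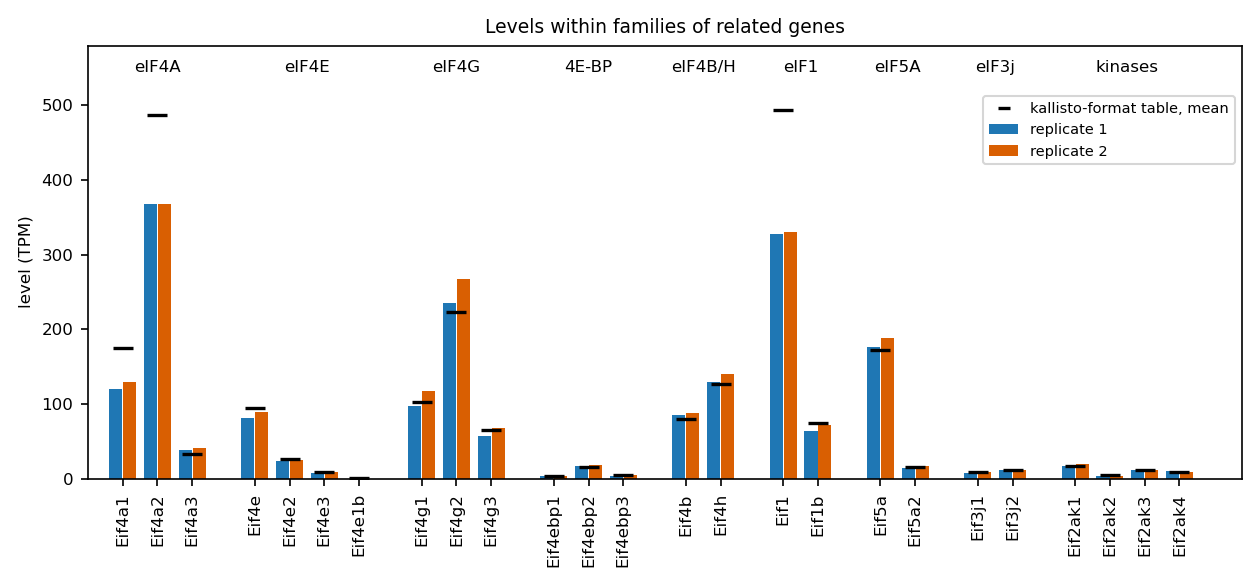
Levels in TPM of related genes, with bars from 0 for each animal and a black line for the mean of the kallisto-format table. Within most families 1 gene stands well above its relatives, as Eif4a2, Eif4g2, Eif1 and Eif5a do, and the line lies above both bars for Eif4a1, Eif4a2 and Eif1.

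Eif4a2 was 1 of 2 genes whose leading transcript was not coding. That transcript was Eif4a2-210, annotated as a target of nonsense-mediated decay, the pathway that degrades messages with an early stop codon. It took 47.4% and 45.5% of the reads of the gene, or 150.9 and 147.2 TPM. The transcripts of type protein_coding took 41.5% and 45.2%, led by Eif4a2-203 with 19.3% and 19.9%. Eif4a2-210 lacks an exon of 140 bases that Eif4a2-201 holds at chr16:23109120-23109259 (mm10, plus strand), a coding exon. It is shown because Eif4a2-210 lacks it and Eif4a2-203 holds it; it does not separate the types, since the decay transcript Eif4a2-204 holds it and the coding transcript Eif4a2-223 lacks it.
Eif4a2 exon: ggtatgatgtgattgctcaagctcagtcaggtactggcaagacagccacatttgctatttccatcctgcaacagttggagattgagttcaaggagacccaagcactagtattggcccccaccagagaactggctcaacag
Its length is not a multiple of 3, and in Eif4a2-210 the annotated stop codon lies at 23110065 to 23110067, 648 bases ahead of the last exon junction.

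Eif4a2-210 differs from Eif4a2-201 in its second exon too. Of 25 annotated Eif4a2 transcripts, 4 hold the whole stretch of 636 bases after the usual stop codon, and among those Eif4a2-210 alone has the second exon that begins 3 bases earlier. None of the 4 joins that second exon with the exon of 140 bases. In the kallisto-format table Eif4a2-210 took 29.4% of the reads and Eif4a2-201 took 28.0%, against 11.2% for Eif4a2-201 in the RSEM-format table. Reads across the junctions were not analysed here, so skipping of the exon was not measured. On coding transcripts alone, Eif4a2 lay above Eif4a1 by 0.69 on the log2 scale of TPM.

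Eif4h has an alternative coding exon. Its 60 bases, at chr5:134624441-134624500 (mm10, minus strand), are in Eif4h-205 and not in Eif4h-201, and their length keeps the reading frame.
Eif4h exon: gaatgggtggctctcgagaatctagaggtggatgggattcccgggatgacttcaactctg
The tables disagreed on which form leads: Eif4h-201 took 63.4% and 64.7% of the reads in the RSEM-format table and 35.2% on average in the kallisto-format table, while Eif4h-205 took 33.4% and 31.6% in the former and 61.7% on average in the latter. The level of the gene was nearly the same in both, 134.5 and 126.3 TPM.

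**Figure D3:**
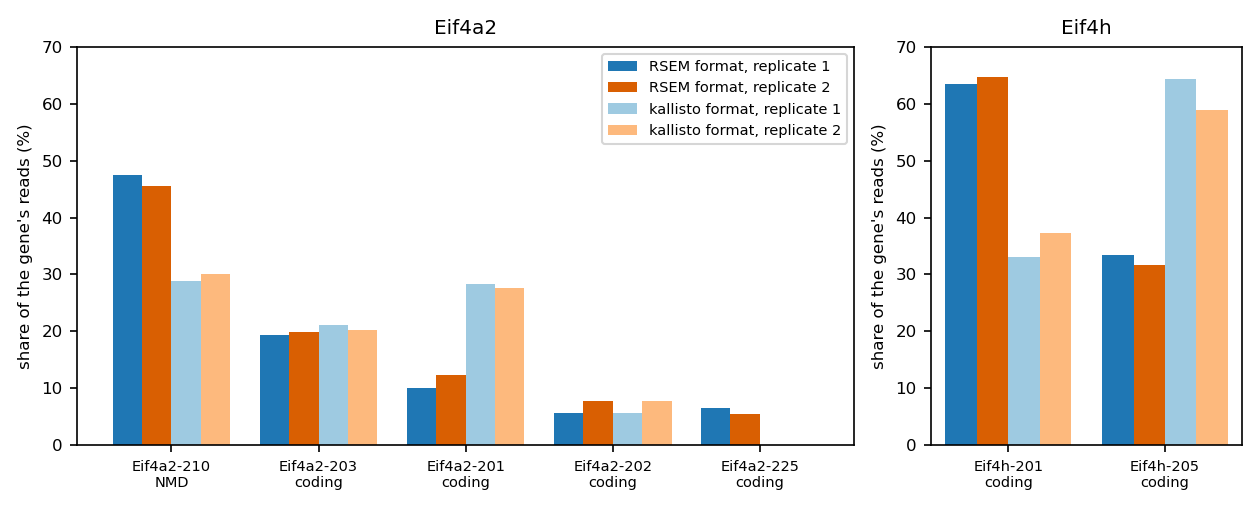
Share of the reads of Eif4a2 (left) and Eif4h (right) on each transcript with 5% or more, as bars for each animal in each of the 2 tables, with the annotated type under the name. Eif4a2-210 stands at 45.5% to 47.4% in the RSEM-format table and lower in the other, and the order of the Eif4h forms is opposite in the 2 tables.

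Over the 52 detected genes, a median of 96.8% of the reads lay on transcripts of type protein_coding, against 96.0% over the 13055 detected coding genes. In 45 of the 52, or 86.5%, the share was at least 90%, against 68.0% of all detected coding genes. The median share of retained-intron transcripts was higher in the members, 2.04% against 0.925%, but large shares were rarer. Retained-intron transcripts took 10% or more in 2 of the 52, Eif5b and Eif2b2, or 3.85% against 18.6%. Of the 52, 5 did in the kallisto-format table, Eif5b, Eif4a1, Eif3g, Eif4a2 and Eif3e, or 9.62% against 19.7%. Eif5b had 24.8% and 30.4% of its reads on them, and 48.6% and 49.9% in the kallisto-format table. The leading transcript was not coding in 2 genes, Eif4a2 and Eif4ebp1, and in the kallisto-format table in Eif4a2 alone. It was the same in both tables in 49 of the 52, the others being Eif4h, Eif4e2 and Eif4ebp1. In Eif2a the decay type took 25.4% and 15.5%, but 8.45% and 0.0% in the kallisto-format table. Eif4a1 differed most between the tables in retained introns: Eif4a1-202 held 4.50% of its reads in the RSEM-format table and 31.7% in the other.

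**Figure D4:**
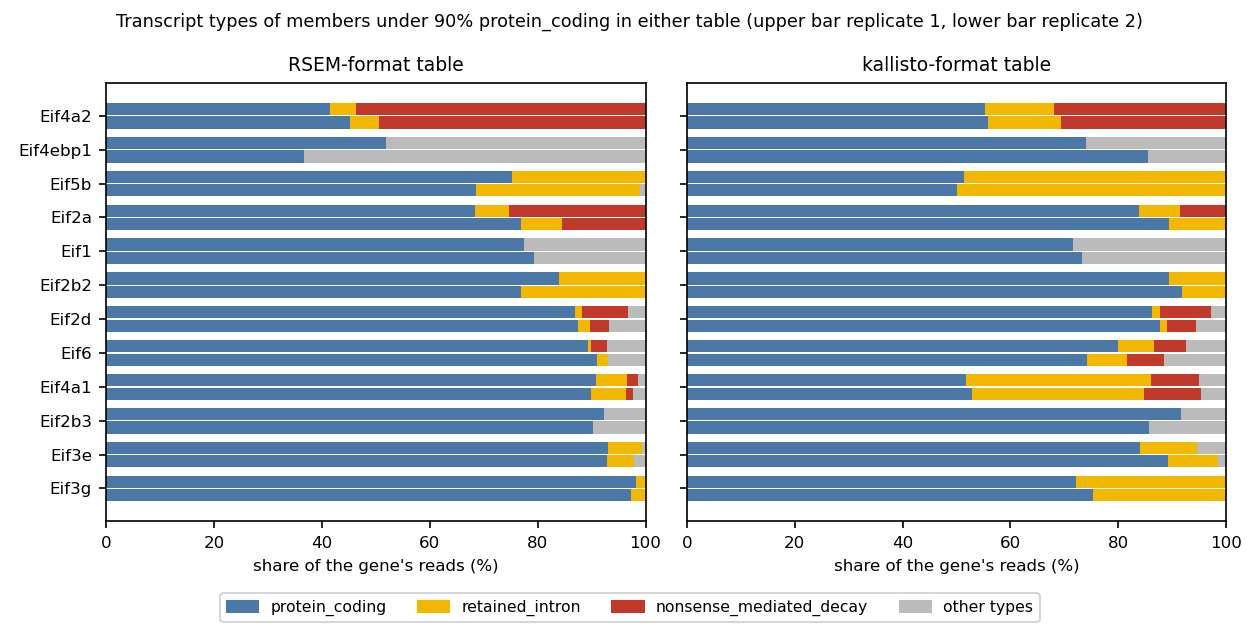
Share of the reads of a gene by annotated transcript type, for the genes with less than 90% on coding transcripts in either table, upper bar replicate 1 and lower bar replicate 2. The red share of Eif4a2 is large in both tables, and the coding shares of Eif4a1 and Eif3g are lower in the kallisto-format table.

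Of the cap-binding proteins, Eif4e, the canonical one, stood at 80.6 and 89.6 TPM. Eif4e2, which represses translation together with Gigyf2, stood at 23.1 and 25.2 TPM and Eif4e3 at 7.90 and 8.56 TPM. On the log2 scale of TPM they lay below Eif4e by 1.81 ± 0.02 and 3.35 ± 0.03 (SD, n = 2), more than the spread between animals. Much of the Eif4e level lay on short coding transcripts: Eif4e-202, of 856 bases, at 29.25 and 30.53 TPM and Eif4e-205, of 729 bases, at 31.33 and 36.46 TPM. Eif4e-201, of 4991 bases, took 61.9% of the reads on average but stood at 15.17 and 15.5 TPM. Eif4e1b, known from oocytes, was listed at 0 reads in both libraries of the RSEM-format table and was the only one of the 53 not detected. The kallisto-format table gave it a mean of 0.481 TPM.

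The scaffold genes were among the most abundant members. Eif4g2, or DAP5, which lacks the site for eIF4E and serves initiation without it, stood at 234.6 and 267.8 TPM, above Eif4g1 at 97.2 and 116.8 TPM and Eif4g3 at 57.2 and 67.4 TPM. Eif4g2 lay above Eif4g1 by 1.23 ± 0.05 on the log2 scale of TPM, and Eif4g3 below it by 0.78 ± 0.02 (SD, n = 2). Eif4g2-206 took 63.4% of the reads on average and Eif4g2-213, whose last exon is longer, 28.1%.

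Of the repressors, Eif4ebp2, the main 4E-BP of brain, stood at 17.4 and 18.8 TPM. Eif4ebp1 stood at 2.97 and 3.95 TPM and Eif4ebp3 at 3.05 and 5.06 TPM, on 77 and 80 and on 49 and 73 reads. Eif4ebp2 lay above Eif4ebp1 by 2.36 ± 0.20 on the log2 scale of TPM, while the difference of Eif4ebp3 from Eif4ebp1, 0.19 ± 0.22, was within the spread (SD, n = 2). On coding transcripts alone they lay above Eif4ebp1 by 4.40 and 2.23. Eif4ebp1-202, a processed transcript, held 48.1% and 63.4% of the Eif4ebp1 reads but 20.2% in the kallisto-format table. Of the stretches of Eif4ebp3, 65.7% recur in AC115631.1, a coding gene that overlaps it on the same strand, with 167 and 123 reads. The level of Eif4e over all its transcripts was 3.45 and 3.22 times the summed level of the 3 Eif4ebp genes. The leading transcripts lay closer, with Eif4e-201 at 15.17 and 15.5 TPM and Eif4ebp2-201 at 14.35 and 15.78 TPM. Eif4enif1, which carries eIF4E into the nucleus and into P-bodies, stood at 27.7 and 30.8 TPM.

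eIF4G and the 4E-BPs compete for the same surface of eIF4E through a short shared motif. The codons of that motif are shown in capitals, from the leading coding transcripts, so that the genes with large and small levels can be compared.
Eif4g1: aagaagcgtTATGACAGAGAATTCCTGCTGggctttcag
Eif4g3: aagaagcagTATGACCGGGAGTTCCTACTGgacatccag
Eif4ebp1: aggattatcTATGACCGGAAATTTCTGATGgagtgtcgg
Eif4ebp2: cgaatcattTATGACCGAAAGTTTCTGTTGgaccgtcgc
In mm10 the capitals lie at chr16:20681221-20681241 (plus strand) for Eif4g1, chr4:138156650-138156670 (plus strand) for Eif4g3, chr8:27273337-27273357 (plus strand) for Eif4ebp1 and chr10:61435069-61435089 (minus strand) for Eif4ebp2. Each stretch lies within 1 exon.

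Eif5a, which helps ribosomes through difficult peptide bonds, stood at 176.0 and 188 TPM, and its paralog Eif5a2 at 14.4 and 16.2 TPM, lower by 3.56 ± 0.05 on the log2 scale of TPM (SD, n = 2). Both proteins carry hypusine, a modified lysine that Dhps and Dohh make. The coding sequences are 72.7% identical, and the codon of that lysine, coding bases 148 to 150, is in capitals (chr11:69919166-69919168, minus strand, and chr3:28782199-28782201, plus strand, mm10).
Eif5a: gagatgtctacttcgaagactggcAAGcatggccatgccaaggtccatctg
Eif5a2: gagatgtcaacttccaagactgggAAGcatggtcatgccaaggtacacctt
Dhps stood at 26.6 and 33.0 TPM and Dohh at 37.3 and 39.3 TPM. Eif6, which keeps free large subunits from joining, stood at 32.7 and 34.4 TPM, but at a mean of 61.9 TPM in the kallisto-format table. Eif1 and Eif6 were the only genes whose level there was more than 1.5 times higher, and 50 genes were within 1.5-fold.

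No member met the rule for a difference between the animals, which asked for a 2-fold ratio and a counting interval, with an error rate of 0.001, that excluded equal levels, and 1.22% of 19484 tested genes did. Ratios here are of counts scaled by TMM, as log2 of replicate 2 over replicate 1, and not of TPM. By the interval alone 4 of 52 tested members differed, against 8.76% of all tested genes, a share close to that background. Of these, 3 had more reads in replicate 1, against 4.51% of all, and 1 in replicate 2, against 4.25%. The interval narrows with reads: where at least 100 reads were asked for, 4 members were past it, against 11.4% of all genes. The median ratio of the 52 was -0.02, against 0.00 for all genes. Its sign followed the scaling, since it was 0.06 when scaled to the spike-ins, where the median of all genes was 0.08. In bulk tissue, fewer cells of a type and less RNA per cell cannot be told apart.

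Eif3f (ENSMUSG00000031029.6, mm10 chromosome 7, 108934417 to 108942951, plus strand) had the largest difference of these 4, with 2521 reads in replicate 1 and 2109 in replicate 2, a log2 ratio of -0.22 (95% counting interval -0.31 to -0.14). It was past the interval under all 4 scalings and in the kallisto-format table, at -0.14 to -0.23. Eif4a2 stood at -0.10 (-0.14 to -0.07) and Eif5 at -0.10 (-0.15 to -0.05), and scaled to the spike-ins they stood at -0.02 each and were no longer past it. Eif5 was not past it with total counts either, at -0.07. Eif4g3, with 7243 and 7676 reads, stood at 0.12 (0.07 to 0.16) and was past it under all 4 scalings, at 0.11 to 0.20. All 4 ratios are far below 2-fold, and the intervals cover counting error only. Of the 15 glial markers, all higher in replicate 1 like Eif3f, Eif4a2 and Eif5, 11 were past the interval. The direction was not particular to glia. All 5 inhibitory neuron markers were higher in replicate 1 too, 1 of them past the interval. Of the 5 excitatory neuron markers, 2 were higher in replicate 1, 1 of them past the interval, and 3 in replicate 2. The part of neuronal, glial, choroid plexus and immediate early genes in these ratios was not tested.

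The TPM of 43 of the 53 genes were higher in replicate 2, although the median count ratio was near 0. The TPM of nuclear coding genes made up a smaller share of all TPM in replicate 1, so that rescaling TPM to these genes alone multiplied them by 2.38 there and by 2.21 in replicate 2.

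The counts of the members differed little between the animals. Their median absolute log2 ratio was 0.06, against 0.12 over 18764 genes with a mean count of at least 10 and 0.07 over 7601 coding genes in the range of the members' counts, and 49 of 52 lay under 0.2, against 65.2% of all tested genes. The largest ratios by size were those of Eif4ebp3 at 0.60 (0.07 to 1.16) and Eif2b3 at 0.23 (0.00 to 0.47), both on few reads and neither past the interval. The 4 kinases stood between -0.08 and 0.06.

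**Figure D5:**
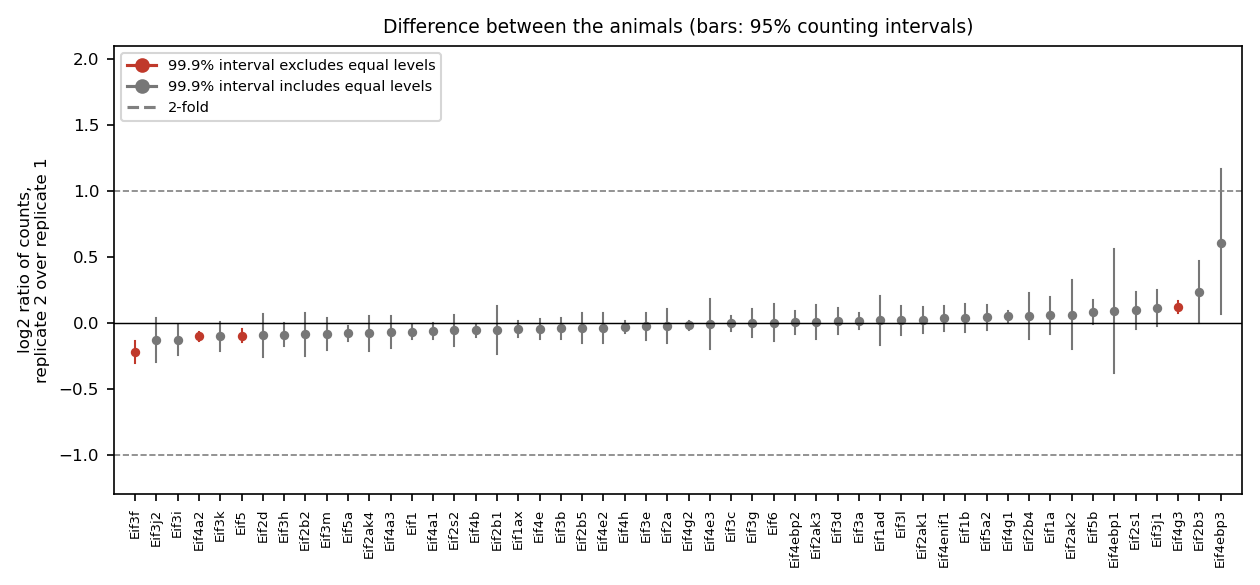
Log2 ratio of scaled counts, replicate 2 over replicate 1, for the 52 members with reads, with 95% counting intervals as bars and dashed lines at 2-fold. All points lie inside the dashed lines, and the 4 red points, Eif3f, Eif4a2, Eif5 and Eif4g3, are those whose interval at an error rate of 0.001 excluded equal levels.

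Genes that act with the members stood at similar levels. The 22 partner genes were all detected, with a median of 33.8 TPM, and 1 passed the interval, Eif2s3x at -0.12. They were led by Pabpc1, the poly(A)-binding protein that contacts eIF4G, at 104 and 105.5 TPM, Paip2 at 74.7 and 78.3, the helicase Ddx3x at 68.4 and 73.3, Gigyf2 at 56.2 and 53.0 and Bzw1 at 51.2 and 55.8 TPM. The 12 genes of mTOR and MAP kinase signalling were detected too, with a median of 27.8 TPM, among them Mapk3 at 89.6 and 84.8, Tsc2 at 51.6 and 62.1, Rheb at 47.97 and 49.1 and Mtor at 35.1 and 37.5 TPM. Of these, Mapk3 passed the interval, at -0.19.

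The integrated stress response is the program that follows phosphorylation of eIF2. Of its 15 matched genes 14 were detected, with a median of 15.4 TPM, and 1 passed the interval, Ddit4 at 0.28. Impact, a neuronal inhibitor of Eif2ak4, led at 158.1 and 191.7 TPM, followed by Asns at 43.2 and 50.9 and Atf4, its main transcription factor, at 44.3 and 47.9 TPM. Gcn1l1, an activator of Eif2ak4, stood at 26.6 in both animals. Ddit3, or CHOP, stood at 18.6 TPM in both. The phosphatase subunits that reverse the phosphorylation, Ppp1r15b and Ppp1r15a, stood at 17.2 ± 1.17 and at 10.6 ± 1.71 TPM (SD, n = 2). Trib3, an Atf4 target, was the gene not detected, at 0.72 and 0.37 TPM.

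Several members lie over or around other genes. Of the 53, 17 are overlapped by a gene on the other strand, and the strand setting of the counting is not given in the sources used here. Besides Banf1, neighbours with more reads than the member were Snx17 for Eif2b4, with 1606 and 1520 reads, Rassf5 for Eif2d, with 787 and 793, and Spg11 for Eif3j1, with 1139.6 and 1144.2. Within 7 members lie 14 annotated small nucleolar RNA genes on the same strand. The most abundant were Gm22988 in Eif4a1, at 792 and 712 TPM, and Gm26447 in Eif4a2, at 725 and 791 TPM, both above their host gene in TPM, which weighs short RNAs heavily. Gm23262 in Eif4g2 stood at 75.1 and 67.0 TPM.

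Start regions were examined for short motifs in 54 RefSeq starts of 41 members (GRCm38.p6), from 250 bases before to 50 bases from each start, on both strands. Eif1a, Eif2b3, Eif3e, Eif3h, Eif3i, Eif3j2, Eif4e1b, Eif4e3, Eif4ebp1, Eif4ebp3, Eif4g2 and Eif6 had no entry. CACGTG, the E-box, was in 22.2% of the 54 regions, against 7.15% of all 32851 and 9.71% of the 13693 of detected genes. GGGCGG, the GC box, was in 70.4%, against 35.7% and 61.4%, and CCAAT in 27.8%, against 37.4% and 37.2%. Starts of 1 gene overlap, so these shares are descriptions. The 12 regions with an E-box belong to 10 genes, among them Eif4e, Eif4g1 and Eif4a1 of eIF4F, which are shown beside Eif3f with the motif in capitals.
Eif4e (chr3:138527192-138527221, plus strand): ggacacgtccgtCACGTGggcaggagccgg
Eif4g1 (chr16:20672661-20672690, plus strand): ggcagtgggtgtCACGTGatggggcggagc
Eif4a1 (chr11:69672595-69672624, minus strand): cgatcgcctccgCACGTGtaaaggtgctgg
Eif3f (chr7:108934335-108934364, plus strand): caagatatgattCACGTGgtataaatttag
TATAAA was in 5.56%, against 13.6% of all and 7.12% of those of detected genes, and GCATGCGC in 5.56%, against 2.71% and 4.87%. No member region held TGACGTCA, ATGGCGG or TGATGNAA, which were in 1.79%, 4.06% and 3.97% of all and in 2.96%, 7.44% and 2.15% of those of detected genes.

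A start with a C followed by at least 4 pyrimidines is a trait of messages whose translation follows mTOR. It was found at 1 of the 54 starts, that of Eif3f, or 1.85%, against 2.51% of all starts. The window of 30 bases around this start (chr7:108934400-108934429, plus strand, GRCm38.p6) is shown with the 11 pyrimidines in capitals.
Eif3f start: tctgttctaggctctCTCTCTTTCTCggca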

How the data were processed

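Total RNA libraries of 2 cortex samples were analysed. Per the file headers, the authors deposited for each a gene table and a transcript table in the format of RSEM, with expected counts, TPM, FPKM and the percent of each transcript in its gene, and a transcript table in the format of kallisto, with estimated counts and TPM. Per the deposited text descriptions, the build was mm10 and the annotation M21. Program versions: not given in the sources used here.

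Levels are deposited TPM, detected meaning at least 1 TPM in both libraries. Log2 ratios between paralogs were computed on TPM with a pseudocount of 0.1. Expected counts were rounded, scaled with edgeR 4.0.16 (TMM), and compared as log2 ratios with 0.5 reads added and Clopper-Pearson intervals, where either library held 10 reads or more. DESeq2 1.42.0 size factors, total counts and spike-in reads were alternatives. The rule was tested on simulated data. Intervals show counting error alone: without molecular identifiers, reads are not independent molecules. The kallisto-format table held no entry for 86 genes.

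Transcript sequences came from the M21 reference. Stretches of 50 bases were taken every 10 bases and sought in all other transcripts. Coding sequences were aligned with Biopython 1.88. Promoter regions are from RefSeq (GRCm38.p6). Protein sequences were not used here.

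Every member is named; differences are named where past the interval, otherwise the largest. Partner, signalling and stress lists give their 5 highest genes, those past the interval and a few fixed regulators. The members and lists were chosen with earlier results of these data known.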

Additional observations from a re-analysis of the deposited data

How the results depend on the processing

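All 90 alternatives for the paralog ratios kept the sign, and 27 moved by more than 1 SD. The moves came from a pseudocount of 1, the kallisto-format table and coding transcripts alone. With n = 2, leaving out either animal cannot move a paralog ratio by more than 1 SD. Rescaling TPM to nuclear coding genes changes such a ratio only through the pseudocount. The lack of moves under these settings therefore shows nothing about stability. Of 50 other alternatives 41 left the value unchanged, meaning equal or within 1.5-fold for counts of genes and within 1 SD for other values. For the median log2 ratio the SD was the spread over the members, so its change of sign with the scaling counted as unchanged. For the median level the SD was that of the animals, which leaving out either could not exceed. In these cases unchanged shows nothing about stability. The median level of the members was 21.7 in FPKM and 70.2 when TPM were rescaled to nuclear coding genes. The count of members past the interval was 4, and 8 in the kallisto-format table and 12 with a 95% interval. In the kallisto-format table the span of eIF2B was 2.46-fold, against 3.21-fold, and that of eIF4F 7.42-fold, against 5.90-fold. The coding share was 96.9% in the kallisto-format table and 96.8% to 96.9% leaving out either replicate. No paired analysis was possible because the samples form 1 group.

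With 2 animals the spread is poorly known, and depth limits Eif4ebp1 and Eif4ebp3, with under 100 reads in each library. Which transcripts carry the reads of Eif2a, Eif2b2, Eif3g, Eif4a1, Eif4a2, Eif4h, Eif5b and Eif4ebp1 depends on the table; the cause was not tested.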
